A study of Homo sapiens with 12 samples.

Results

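A set of 347 genomic loci carried H3K27ac peaks in every library of CFPAC1 and MiaPaCa2 pancreatic cancer cells treated with interferon beta (IFN-beta), and in at most 1 of the untreated libraries. Acetylation of histone H3 on lysine 27 (H3K27ac) marks active promoters and enhancers and was mapped by chromatin immunoprecipitation and sequencing. The peaks of the 8 bulk libraries on chromosomes 1 to 22 and X were merged into 170420 loci, and a locus was kept when at least 1 bp of it lay under a peak in all 4 IFN-beta libraries and in at most 1 of the 4 untreated libraries. The 347 loci are 0.204% of all merged loci and 1.76% of the 19675 loci with a peak in all 4 IFN-beta libraries. The loci were chosen by the presence of a peak in the bulk libraries, so the bulk values below are a description and carry no test. They are called gained loci here for that pattern of presence alone.

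CFPAC1 and MiaPaCa2 are established lines from human pancreatic ductal adenocarcinoma, and the study's title concerns the transcription factor IRF1 in low-grade cells of this cancer. The 12 libraries form 6 groups of 2. CFPAC1 IFN-beta and MiaPaCa2 IFN-beta are bulk cultures given IFN-beta at 1000 U/ml for 2 h, and CFPAC1 untreated and MiaPaCa2 untreated are their untreated bulk counterparts; CFPAC1 cells were grown in IMDM and MiaPaCa2 cells in DMEM. IRF1 knockout (KO) clones are CFPAC1 lines grown out by dilution after infection with a lentiviral vector for wild-type Cas9 and a guide to IRF1, while the WT clones went through infection with the same vector, with no guide stated, and dilution. No IFN-beta is stated for any of the clones, and each clone library stands for a single clone. The labels do not say whether the bulk libraries of a group came from separate cultures, so their spread may be technical.

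The libraries held 59896 to 109861 peaks and between 63.6 and 94.8 Mb of sequence under them. Their read depth is not known. Peaks on the chromosomes used numbered 85908 and 85623 in CFPAC1 IFN-beta against 97416 and 102802 in CFPAC1 untreated, and 59896 and 69218 in MiaPaCa2 IFN-beta against 85442 and 71515 in MiaPaCa2 untreated, so each IFN-beta list was shorter than both untreated lists of its line. Between the libraries of a group the Jaccard index of covered bp was 0.576 to 0.691, lowest between the KO clones. In each library the smallest -log10 q of a peak was 1.3 to 1.32, except in KO clone 1, where it was 1.37. Peaks within 1 kb of a gene start or end were found at 15 or 16 of 16 epithelial marker genes in the CFPAC1 libraries and at 8 to 11 in the MiaPaCa2 libraries, where CDH1 and EPCAM, which encode epithelial adhesion proteins, had none. Mesenchymal markers had a peak at 6 to 9 of 10 genes in the CFPAC1 libraries and at 4 in each MiaPaCa2 library. Fibroblast markers had one at 2 to 6 of 9 genes and leukocyte markers at 2 to 5 of 15. PTPRC, which encodes the common leukocyte antigen, had none in any library. Over a span of 19165 bp around IRF1, covered length was 8271 and 14027 bp in the KO clones and 5485 and 6341 bp in the WT clones, and a histone mark does not check the edit.

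IFN-beta is a type I interferon. It binds the receptor made of IFNAR1 and IFNAR2, whose JAK kinases switch on the transcription factor complex ISGF3. ISGF3 binds the interferon-stimulated response element (ISRE) near genes for antiviral proteins, and IRF1 and other IRF proteins read sites like the ISRE. The gamma-activated sequence (GAS) is another DNA element of interferon-responsive genes.

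Promoters of 5 antiviral genes with a gained locus within 5 kb of the start are shown because each holds an ISRE core, searched on both strands as GAAA, any 2 bases, GAAA. Each run is the 200 bases before a RefSeq start on GRCh38.p14, written 5' to 3' on the gene's strand, with the ISRE cores in capitals. The gained loci lie outside these runs. IFIT3 is on chr10:89327797-89327996 (plus strand), PARP9 on chr3:122564301-122564500 (minus strand), HERC5 on chr4:88456919-88457118 (plus strand), IFI6 on chr1:27672193-27672392 (minus strand) and ISG15 on chr1:1013297-1013496 (plus strand).
IFIT3: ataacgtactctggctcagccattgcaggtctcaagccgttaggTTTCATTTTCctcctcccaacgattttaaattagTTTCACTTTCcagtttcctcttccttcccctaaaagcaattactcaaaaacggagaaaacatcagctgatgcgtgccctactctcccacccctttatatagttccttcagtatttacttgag
PARP9: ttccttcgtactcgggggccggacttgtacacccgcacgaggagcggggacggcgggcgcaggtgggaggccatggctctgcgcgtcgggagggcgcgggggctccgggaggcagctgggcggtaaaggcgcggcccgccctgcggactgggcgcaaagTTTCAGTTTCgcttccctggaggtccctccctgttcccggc
HERC5: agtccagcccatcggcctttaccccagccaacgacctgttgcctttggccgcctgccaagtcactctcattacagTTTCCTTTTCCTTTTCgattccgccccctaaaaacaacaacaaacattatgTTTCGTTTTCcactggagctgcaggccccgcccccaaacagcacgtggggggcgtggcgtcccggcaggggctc
IFI6: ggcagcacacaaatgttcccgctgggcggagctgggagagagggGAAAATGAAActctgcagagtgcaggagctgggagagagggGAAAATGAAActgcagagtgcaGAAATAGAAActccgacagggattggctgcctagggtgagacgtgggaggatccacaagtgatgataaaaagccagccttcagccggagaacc
ISG15: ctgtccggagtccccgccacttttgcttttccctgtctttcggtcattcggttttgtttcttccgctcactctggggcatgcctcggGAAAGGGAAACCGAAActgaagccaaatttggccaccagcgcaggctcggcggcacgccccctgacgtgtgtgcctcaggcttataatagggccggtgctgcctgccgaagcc
The first core began 156 bases before the start in IFIT3, 41 in PARP9, 125 in HERC5, 156 in IFI6 and 113 in ISG15. From these starts the nearest gained locus lay 1986 bp away at IFIT3, 2033 bp at PARP9, 875 bp at HERC5, 1858 bp at IFI6 and 2603 bp at ISG15. A match of letters is a description and does not show binding.

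Gained loci seldom lay over a promoter. Of the 347, 203 (58.5%) overlapped the span of a protein-coding gene and 144 lay outside every such span, and exon positions were not used here. A gene position is meant here as a known start of a protein-coding gene, or either end where the strand is not known. Within 50 kb, 248 loci had such a position, of 234 distinct genes in all, and 99 (28.5%) had none. The share with one was 71.5% of gained loci and 67.3% of all merged loci. A locus with none can still lie inside a coding gene. The reference used here gives the strand, and so the start, of 15812 of 19974 protein-coding genes. By it 196 gained loci were assigned to a start and 52 to a gene end whose strand was not known.

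Only 4 gained loci (1.15%) lay over the start or end they were assigned to, against 11096 of all merged loci (6.51%). The share was 2.89% (8 of 277) for loci with the opposite pattern and 42.3% (8324) for those with a peak in all 4 IFN-beta libraries. A further 15 gained loci (4.32%) lay under 1 kb away, 48 (13.8%) at 1 to 5 kb, 106 (30.5%) at 5 to 20 kb and 75 (21.6%) at 20 to 50 kb. Within 5 kb lay 19.3% of gained loci and 24.9% of all merged loci. The opposite pattern is a peak in all 4 untreated libraries and at most 1 IFN-beta library, which 0.163% of all loci showed. Of the gained loci assigned to a start, 74 were upstream, 120 downstream and 2 over it. These shares describe where the rule finds loci and were not tested, and gained loci were narrower than the loci of all 4 IFN-beta libraries.

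**Figure D1:**
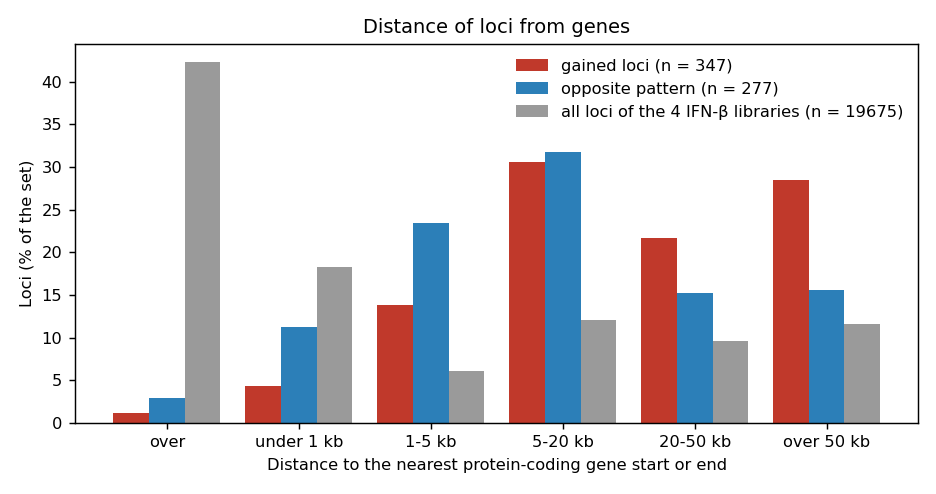
Share of loci (y axis, %) by distance to the nearest protein-coding gene start or end (x axis, classes in kb), for the 347 gained loci, the 277 loci with the opposite pattern and the 19675 loci with a peak in all 4 IFN-beta libraries. Over a start or end lay 1.15% of gained loci, 2.89% of the opposite loci and 42.3% of the loci of all 4 IFN-beta libraries. Of all merged loci, which are not drawn, 6.51% lay over one. No gene position within 50 kb was found for 28.5% of gained loci, some of which lie inside a coding gene.

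Where a gained locus lay near a start, the start itself usually had a peak without IFN-beta. For 52 loci, nearest to 49 genes, a known start lay within 5 kb. At 46 to 48 of the 52 loci that start had a peak within 1 kb in each IFN-beta library, and at 40 to 42 in each untreated library. At 36 loci it had one in all 4 untreated libraries, and at 4 in none of them. IFIT3, ISG15 and CIMAP1B each count for 2 of the 52 loci. The share of all known starts with an untreated peak is not given here, so these counts do not set gained loci apart. The nearest untreated peak was at a median of 4533 bp in CFPAC1 and 6298 bp in MiaPaCa2, and 123 gained loci were over 10 kb from any untreated CFPAC1 peak and 135 from any untreated MiaPaCa2 peak.

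Width ran from 330 to 5713 bp with a median of 1214 bp. Loci of all 4 IFN-beta libraries had a median of 2342 bp, and loci of the opposite pattern 752 bp. The widest gained locus was chr17:27807026-27812738, 6497 bp from an end of NOS2, which encodes inducible nitric oxide synthase. It had 5713 and 4745 bp under peaks in CFPAC1 IFN-beta, 3095 and 1109 bp in MiaPaCa2 IFN-beta and 0 bp in every untreated library. The next widest was at TGM1 (4573 bp), which encodes a transglutaminase of the skin barrier. After it came chr3:172583784-172588049 (4266 bp), with no gene position within 50 kb. HERC6 (4131 bp) and SMCHD1 (4128 bp), which encodes a chromatin protein of X inactivation, followed. The 5 narrowest were 330 to 381 bp wide, with TLK2, which encodes a chromatin assembly kinase, at 330 bp. The others were nearest to GRINA (356 bp) and RUBCN (362 bp), in the span of PIK3CB (366 bp) and at chr13:90116249-90116629 (381 bp).

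Every chromosome but Y, which was not used, held gained loci. Chromosomes 1 and 2 held 31 each and chromosome 3 held 28. Chromosome 21 had 9, which is 3.59% of its loci with a peak in all 4 IFN-beta libraries, the highest share, and chromosome 19 had 7, or 0.587%, the lowest. Those on chromosome 21 include loci in the spans of MX1, IFNAR1, C2CD2, DYRK1A and RUNX1. There were 14 genes nearest to 2 gained loci each, among them CMPK2, IFIT3, IRF8, ISG15 and NUB1, and 17 neighbouring pairs lay within 10 kb of each other. Such pairs may be parts of 1 region and are not independent.

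The authors' fold of each peak over its local background describes height within a library. The highest fold over a gained locus had a median of 7.29 and 5.36 in CFPAC1 IFN-beta and 6.53 and 4.75 in MiaPaCa2 IFN-beta. By the same measure all merged loci with a peak stood at 6.05 and 5.72 in CFPAC1 IFN-beta and 6.74 and 5.15 in MiaPaCa2 IFN-beta. Only in CFPAC1 IFN-beta 1 was the median of gained loci the higher. Loci of all 4 IFN-beta libraries stood at 11.6, 9.84, 17.6 and 17.2. Single peaks, a different unit, had medians of 5.47, 5.21, 5.75 and 4.78 in those lists. The rank correlation of fold over the 347 loci was 0.643 between the CFPAC1 libraries, 0.630 between the MiaPaCa2 libraries and 0.278 to 0.362 between lines. The points share neighbouring loci and library, so these are descriptions. Fold was not scaled between libraries, and its ranks were more alike within a line than between lines.

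The highest folds were found by ranking the gained loci in each IFN-beta library and averaging the ranks. First came chr11:123231203-123235213, 35955 bp from an end of CLMP, which encodes a cell adhesion protein. It had folds of 29.1 and 25.2 in CFPAC1 IFN-beta and 21.2 and 9.90 in MiaPaCa2 IFN-beta, against 3.31 in CFPAC1 untreated 1 and no peak in the other untreated libraries. All 4 IFN-beta values were above the only untreated one.

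The locus at chr2:232363607-232365009, 13742 bp upstream of ALPP, which encodes placental alkaline phosphatase, had folds of 17.7 and 10.7 in CFPAC1 IFN-beta and 17.5 and 17.3 in MiaPaCa2 IFN-beta, against 4.02 in MiaPaCa2 untreated 1 only. At chr6:116694630-116697212, in the span of KPNA5, which encodes a nuclear import receptor, folds were 20.7 and 9.84 in CFPAC1 IFN-beta and 14.9 and 11.7 in MiaPaCa2 IFN-beta, with no peak in any untreated library or clone. The locus chr7:135573440-135576740, inside NUP205 and 15523 bp downstream of its start, had 15.1 and 10.8 in CFPAC1 IFN-beta and 24.9 and 16.8 in MiaPaCa2 IFN-beta, and none elsewhere. NUP205 encodes a scaffold protein of the nuclear pore. At KPNA5 CFPAC1 IFN-beta 1 was highest, and at NUP205 both MiaPaCa2 IFN-beta values were above both CFPAC1 IFN-beta values.

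Several of the 30 highest-ranked loci had no gene position within 50 kb. One on the X chromosome, chrX:39935200-39938447, had folds of 14.2 and 8.32 in CFPAC1 IFN-beta and 19.5 and 10.5 in MiaPaCa2 IFN-beta, against 4.27 in MiaPaCa2 untreated 1. Another, chr14:77552817-77555799, lies inside SPTLC2, which encodes a subunit of the first enzyme of sphingolipid synthesis. Its folds were 17.8 and 6.89 in CFPAC1 IFN-beta and 20.2 and 8.71 in MiaPaCa2 IFN-beta, with no peak in any untreated library or clone. The second-ranked locus of all, chr9:105858032-105861109, had 21.0 and 12.8 in CFPAC1 IFN-beta and 16.2 and 8.98 in MiaPaCa2 IFN-beta, against 5.10 in CFPAC1 untreated 1. These loci, chosen by rank of IFN-beta fold, had a peak in at most 1 untreated library, as the rule requires. Where there was one its fold was below the 4 IFN-beta folds, which was not so at every gained locus. The remaining loci without such a position were chr3:172583784-172588049, chr5:138937434-138939383, chr10:89082841-89086072 and chr5:5523756-5525124. Others of the 30 were nearest to FAM133B, PXK, MTG1, ARRDC3, TCTN2, LOC124900417, DOCK9, SOX13, SMCHD1, SLC9C2, ST14 and PRRC2C, which stood on none of the gene lists used here.

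**Figure D2:**
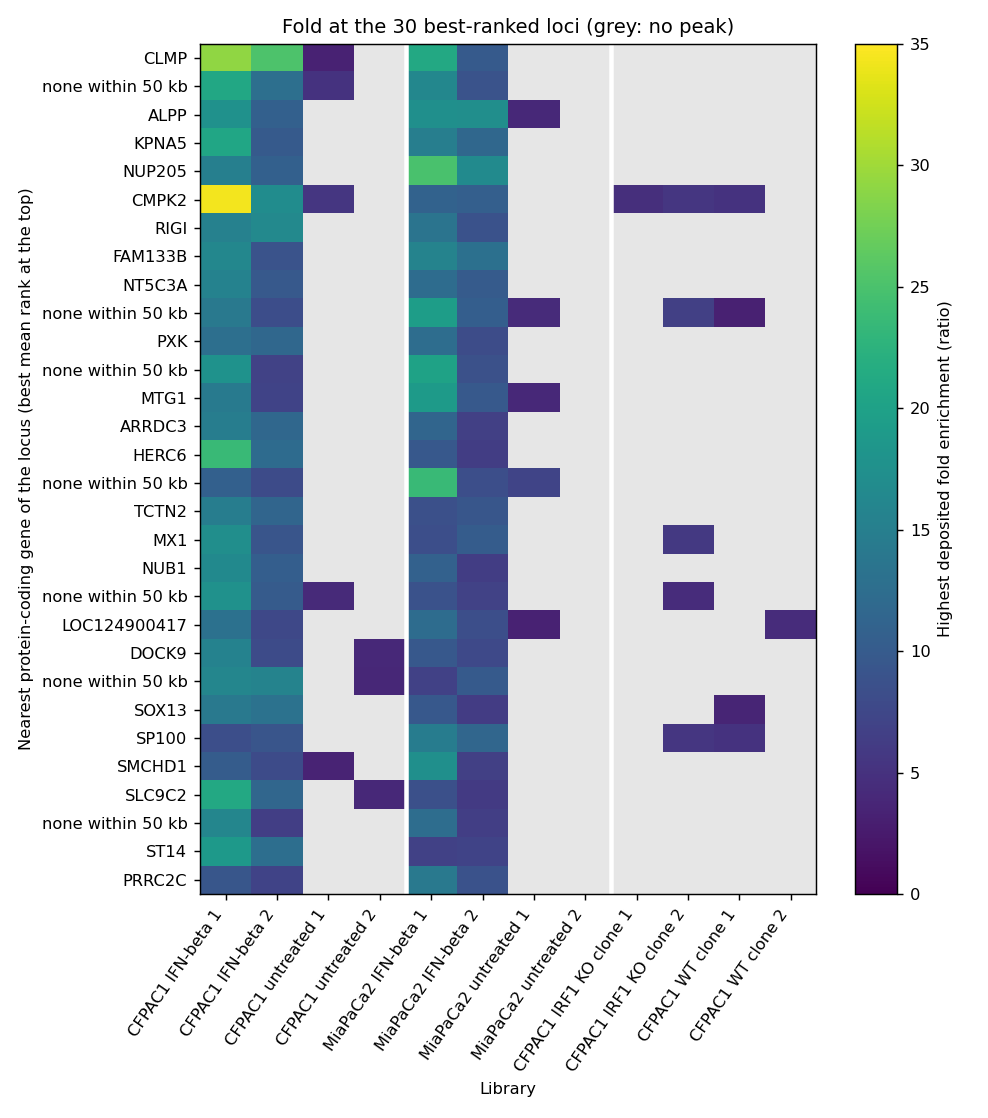
Deposited fold over local background (colour scale) of the highest peak at each of the 30 gained loci with the best mean rank, by library, with the IFN-beta libraries of a line left of its untreated ones and KO clones left of WT clones. Grey cells have no peak over the locus. The CFPAC1 IFN-beta libraries reach 34.3 and 25.2 and the MiaPaCa2 IFN-beta libraries 24.9 and 17.3.

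Genes of the interferon response were near more gained loci than their share of all loci. Of 196 such genes with any locus, taken over 10 lists, 27 (13.8%) had at least 1 gained locus, against 234 of 15966 protein-coding genes (1.47%). These genes took 32 of the 347 gained loci (9.22%), against 1383 of all 170420 loci (0.812%) and 1 of 277 loci of the opposite pattern (0.361%). Among loci of all 4 IFN-beta libraries the share was 9.72% with 0 untreated libraries, 8.40% with 1, 4.31% with 2, 2.2% with 3 and 1.09% with 4. The lists were chosen with these responses known, so the shares are given with no test. Loci were counted by the nearest gene position, so a locus inside a gene can count for its neighbour. The locus nearest to GRINA lies in the span of PARP10, and that nearest to HLA-DOB in the span of TAP2.

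**Figure D3:**
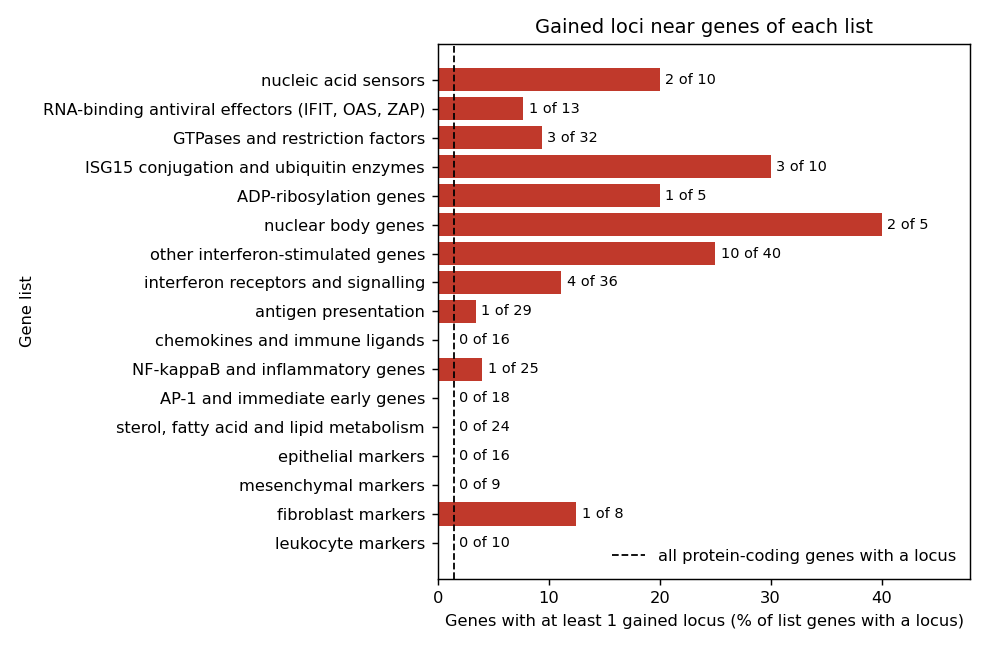
Share of each list's genes with at least 1 gained locus (x axis, % of list genes with any locus within 50 kb), with the counts printed beside the bars and the 1.47% of all protein-coding genes as a dashed line. Nuclear body genes stand at 2 of 5 and other interferon-stimulated genes at 10 of 40, while the AP-1, lipid, epithelial, mesenchymal, leukocyte and chemokine lists stand at 0.

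Of 10 nucleic acid sensor genes, 2 had a gained locus. RIGI encodes the cytosolic sensor of viral RNA. Its locus, chr9:32528294-32530953, 2098 bp upstream of the start, had 2496 and 2306 bp under peaks in CFPAC1 IFN-beta and 2555 and 2331 bp in MiaPaCa2 IFN-beta, and 0 bp in each untreated library and each clone. Its coverage was alike in the 4 IFN-beta libraries, with folds of 15.4, 16.4, 13.5 and 8.84. STING1 encodes the adaptor of cytosolic DNA sensing. The locus 9661 bp from its end had 1627 and 1599 bp in CFPAC1 IFN-beta and 460 and 234 bp in MiaPaCa2 IFN-beta. CFPAC1 untreated 1 had 321 bp and the other untreated libraries 0. Across lines, the MiaPaCa2 IFN-beta values overlapped the CFPAC1 untreated one.

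Of 32 genes for GTPases and restriction factors, 3 had gained loci. CMPK2, which encodes a mitochondrial nucleotide kinase, lies head to head with RSAD2, which encodes the antiviral enzyme viperin. The locus chr2:6863488-6865408, inside CMPK2, 411 bp from its start and 477 bp from that of RSAD2, had 1897 and 1921 bp in CFPAC1 IFN-beta and 1087 and 718 bp in MiaPaCa2 IFN-beta, against 277 bp in CFPAC1 untreated 1 and 0 in the other 3 untreated libraries. Its fold of 34.3 in CFPAC1 IFN-beta 1 was the highest of any gained locus. A second locus, chr2:6831978-6834080, 31739 bp downstream of the CMPK2 start, had 2011 and 1770 bp in CFPAC1 IFN-beta and 899 and 248 bp in MiaPaCa2 IFN-beta, and none elsewhere.

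MX1 encodes a GTPase that blocks viral replication. Its locus, chr21:41423515-41425292, in the MX1 span and 947 bp upstream of the nearer of its starts, had 1778 and 1532 bp in CFPAC1 IFN-beta, 1478 and 1605 bp in MiaPaCa2 IFN-beta and 0 bp in every untreated library. Coverage was alike in the 4 IFN-beta libraries and filled most of the locus in each. At SLFN5, which encodes a Schlafen family protein, the locus 13869 bp from an end had 3004 and 2671 bp in CFPAC1 IFN-beta and 279 and 200 bp in MiaPaCa2 IFN-beta, against 342 bp in CFPAC1 untreated 2. Coverage at SLFN5 was thus wide in CFPAC1 and narrow in MiaPaCa2.

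Of 10 genes for ISG15 conjugation and ubiquitin enzymes, 3 had gained loci, and none of the 4 loci had a peak in an untreated library or a clone. ISG15 is a ubiquitin-like modifier, HERC5 the ligase that attaches it, and HERC6 a related ligase. The HERC6 locus, chr4:88380576-88384706, 1724 bp downstream of the start, had 4131 and 3855 bp in CFPAC1 IFN-beta and 2211 and 1924 bp in MiaPaCa2 IFN-beta. The HERC5 locus, chr4:88455018-88456244, had 1205 and 810 bp in CFPAC1 IFN-beta and 373 and 200 bp in MiaPaCa2 IFN-beta. Both were wider in CFPAC1.

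The ISG15 loci, chr1:1008957-1009441 and chr1:1010206-1010894, lie 4056 and 2603 bp upstream of the start. The more distant had 485 and 319 bp in CFPAC1 IFN-beta and 219 and 302 bp in MiaPaCa2 IFN-beta, and the nearer 619 and 229 bp in CFPAC1 IFN-beta and 577 and 304 bp in MiaPaCa2 IFN-beta. These are small islands beside the ISG15 promoter.

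Of 13 genes of the IFIT, OAS and ZAP list, IFIT3 alone had gained loci. IFIT3 acts with IFIT1 in binding viral RNA. Its loci, chr10:89322557-89323149 and chr10:89325529-89326011, lie 4848 and 1986 bp upstream of its start and inside the span of LIPA, which encodes lysosomal acid lipase. The more distant had 575 and 549 bp in CFPAC1 IFN-beta and 405 and 226 bp in MiaPaCa2 IFN-beta, and the nearer 328 and 325 bp in CFPAC1 IFN-beta and 483 and 369 bp in MiaPaCa2 IFN-beta. Neither had a peak in an untreated library or a clone.

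Of 5 nuclear body genes, 2 neighbours had gained loci just upstream of their starts. SP100 and SP140L encode related chromatin readers, and SP100 is a component of the PML nuclear body. The SP100 locus, chr2:230413855-230415223, had 1225 and 1160 bp in CFPAC1 IFN-beta and 1369 and 1211 bp in MiaPaCa2 IFN-beta, with 0 bp in every untreated library, 0 and 700 bp in the KO clones and 512 and 0 bp in the WT clones. The SP140L locus, 1008 bp upstream of the start, had 1384 and 803 bp in CFPAC1 IFN-beta and 1132 and 454 bp in MiaPaCa2 IFN-beta, with 0 bp in every untreated bulk library, 0 and 512 bp in the KO clones and 384 and 200 bp in the WT clones. At both genes some clones, for which no IFN-beta is stated, had a peak that the untreated bulk cells did not.

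Of 5 genes of ADP-ribosylation, PARP9 had a gained locus. PARP9 acts with DTX3L, its head-to-head neighbour. Its locus had 1368 and 855 bp in CFPAC1 IFN-beta and 1253 and 847 bp in MiaPaCa2 IFN-beta, against 268 bp in CFPAC1 untreated 1 alone.

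Of 40 other interferon-stimulated genes, 10 had gained loci. NT5C3A encodes a pyrimidine nucleotidase, and its locus, chr7:33026801-33028711, had 1291 and 1309 bp in CFPAC1 IFN-beta, 1479 and 1674 bp in MiaPaCa2 IFN-beta and none elsewhere. NUB1, which encodes a protein that lowers NEDD8 levels, had a pair of loci in its span, of which the taller had folds of 16.6 and 10.5 in CFPAC1 IFN-beta and 10.9 and 6.38 in MiaPaCa2 IFN-beta. BATF2 encodes a transcription factor of the AP-1 superfamily. Its locus had 1069 and 913 bp in CFPAC1 IFN-beta and 662 and 545 bp in MiaPaCa2 IFN-beta, against 692 bp in CFPAC1 untreated 1. Across lines, the MiaPaCa2 IFN-beta values were below that CFPAC1 untreated value.

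IFI6 encodes a mitochondrial protein that limits cell death. Its locus, chr1:27669292-27670334, had 948 and 589 bp in CFPAC1 IFN-beta and 306 and 589 bp in MiaPaCa2 IFN-beta. MiaPaCa2 untreated 2 had 349 bp, between the MiaPaCa2 IFN-beta values. By fold MiaPaCa2 untreated 2, at 5.25, was above both MiaPaCa2 IFN-beta libraries, at 3.27 and 4.90. CASP1, which encodes the inflammatory caspase, had 1180 and 684 bp in CFPAC1 IFN-beta and 1179 and 785 bp in MiaPaCa2 IFN-beta, against 586 bp in MiaPaCa2 untreated 1. APOL6, CMTR1, CNP, IFI35 and PNPT1 had loci of 406 to 1825 bp with folds of 4.35 to 12.9 in the IFN-beta libraries. Among them APOL6, CMTR1 and PNPT1 had a peak in 1 untreated library each, and CNP and IFI35 in none.

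Of 36 genes for interferon receptors and signalling, 4 had gained loci. IFNAR1 encodes a receptor chain, and its locus, 30029 bp into the gene, had 712 and 541 bp in CFPAC1 IFN-beta and 883 and 643 bp in MiaPaCa2 IFN-beta. SOCS1 encodes a feedback inhibitor of JAK kinases, and the locus 14810 bp downstream of its start had 861 and 876 bp in CFPAC1 IFN-beta and 569 and 294 bp in MiaPaCa2 IFN-beta. STAT5A encodes a signal transducer, and its locus had 1243 and 538 bp in CFPAC1 IFN-beta and 1169 and 248 bp in MiaPaCa2 IFN-beta. None of these 3 loci had a peak in an untreated bulk library.

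IRF8 encodes an interferon regulatory factor best known from blood cells. Its loci lie 39567 and 3721 bp upstream of the start. The distant one had folds of 14.2 and 11.6 in CFPAC1 IFN-beta and 4.52 and 5.08 in MiaPaCa2 IFN-beta, and none elsewhere. The near one had 322 and 544 bp in CFPAC1 IFN-beta and 233 and 352 bp in MiaPaCa2 IFN-beta, 0 bp in every untreated bulk library, 519 and 353 bp in the KO clones and 222 and 0 bp in the WT clones. The fitted difference was 0.64 ± 0.28 (KO minus WT, log2 scale with 500 bp added, limma SE; adjusted p = 0.514).

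The antigen presentation list had 1 gene of 29, PDIA3, which encodes a chaperone of the peptide-loading complex, with 619 and 200 bp in CFPAC1 IFN-beta, 289 and 654 bp in MiaPaCa2 IFN-beta and 333 bp in CFPAC1 untreated 1. Of 25 NF-kappaB and inflammatory genes, NFKBIZ, which encodes a nuclear regulator of NF-kappaB, had 951 and 411 bp in CFPAC1 IFN-beta and 1310 and 776 bp in MiaPaCa2 IFN-beta. COL1A1, a fibroblast marker that encodes collagen, was 1 of 8 on its list, with 1678 and 1681 bp in CFPAC1 IFN-beta and 1288 and 1142 bp in MiaPaCa2 IFN-beta, against 263 bp in CFPAC1 untreated 1. No gained locus was nearest to any of the 16 chemokine and immune ligand genes, 18 AP-1 genes, 24 lipid genes, 16 epithelial, 9 mesenchymal or 10 leukocyte markers with a locus.

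Of the gained loci 216 had no peak in an untreated library and 131 had a peak in exactly 1. CFPAC1 untreated 1 held 42 of those, CFPAC1 untreated 2 held 36, MiaPaCa2 untreated 1 held 32 and MiaPaCa2 untreated 2 held 21. Their median folds there were 3.93, 4.08, 4.11 and 4.21, each below the median of all peaks in its list. At some of them the untreated fold was above all 4 IFN-beta folds. At chrX:45329365-45330591 it was 6.46 in CFPAC1 untreated 2, against 2.70 and 5.24 in CFPAC1 IFN-beta and 2.97 and 4.24 in MiaPaCa2 IFN-beta. At the locus nearest to CCN1 it was 5.94 in CFPAC1 untreated 2, against 4.96, 4.01, 4.49 and 2.99 in the same order. Just outside the rule were 557 loci with a peak in all 4 IFN-beta and 2 untreated libraries, with a median width of 1731 bp against 1221 bp for the 131 loci just inside.

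Some of the tallest loci were just outside, among them those of antiviral genes. At IFIH1, which encodes the RNA sensor MDA5, folds were 42.5 and 26.0 in CFPAC1 IFN-beta and 17.2 and 11.4 in MiaPaCa2 IFN-beta, against 10.1 and 9.38 in CFPAC1 untreated and no peak in MiaPaCa2 untreated. At OAS1, which encodes a synthetase that activates RNase L, they were 37.5 and 22 in CFPAC1 IFN-beta and 22.5 and 12 in MiaPaCa2 IFN-beta, against 11.8 and 9.06 in CFPAC1 untreated. At MX2, which encodes a GTPase related to MX1, folds were 39.8 and 25.3 in CFPAC1 IFN-beta and 18.1 and 12.4 in MiaPaCa2 IFN-beta, against 5.41 and 4.94 in CFPAC1 untreated. At each of these 3 genes every IFN-beta value was above the untreated values, fold not being scaled between libraries. A locus 28752 bp from the start of CPEB3, which encodes an RNA-binding protein, had 72.8 and 44.1 in CFPAC1 IFN-beta and 24.1 and 13.1 in MiaPaCa2 IFN-beta. Against them stood 22.4 and 23.8 in CFPAC1 untreated. Within CFPAC1 both IFN-beta values were above both untreated values. Across lines MiaPaCa2 IFN-beta 2 was below both CFPAC1 untreated values. At chr5:107999573-108006155, with no gene position within 50 kb, folds were 40.4 and 26.8 in CFPAC1 IFN-beta and 12 and 9.98 in MiaPaCa2 IFN-beta, against 6.56 and 4.89 in CFPAC1 untreated. All 5 had peaks in both CFPAC1 untreated libraries and in neither MiaPaCa2 untreated library.

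Promoter letters were compared between sets of RefSeq promoters, each from 250 bases before to 50 after a start. Only 5 promoters of 4 genes started inside a gained locus, and 1 of them held an ISRE core. In a comparison chosen after seeing the data, 103 promoters of 80 genes started within 5 kb, and 11 of them (10.7%) held the ISRE core, against 1250 of all 34961 promoters (3.58%) and 3.13% of the 12396 that started in loci of all 4 IFN-beta libraries. The GAS, searched as TTCNNNGAA, was in 15.5% of the 103 and 7.66% of all. An NF-kappaB motif, GGGA, any 2 bases, TTCC, was in 0.971% and 1.61%, and an AP-1 motif, TGANTCA, in 8.74% and 7.68%. Motifs were searched on both strands and separately, so matches can overlap. Several promoters belong to 1 gene and neighbours share a locus, so no test is given, and the sequence of the gained loci themselves was not used here.

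The clones allow a comparison that the rule did not use, namely whether loss of IRF1 alters these loci without added IFN-beta. Most gained loci were without a peak in clones. The clones are CFPAC1 cells, and the rule kept loci that mostly lack a peak in untreated CFPAC1, so it favours few peaks there. The low share in clones is thus no independent result. Of the 347, 31 (8.93%) had a peak in KO clone 1 and 51 (14.7%) in KO clone 2, while 50 (14.4%) had one in WT clone 1 and 34 (9.80%) in WT clone 2. The mean was 11.8 ± 4.08% in KO clones and 12.1 ± 3.26% in WT clones (SD, n = 2 each), a difference of -0.288 percentage points (exact permutation test, two-sided p = 1, where the smallest possible is 0.33). The genotypes overlapped. Over all merged loci the KO clones averaged 37.1% and the WT clones 35.6%. Without KO clone 1 the difference was 2.59 points and without KO clone 2 it was -3.17, so its sign depended on a single clone. With equal numbers of peaks per library it was -5.53 points (12.9% in KO clones and 18.4% in WT clones).

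**Figure D4:**
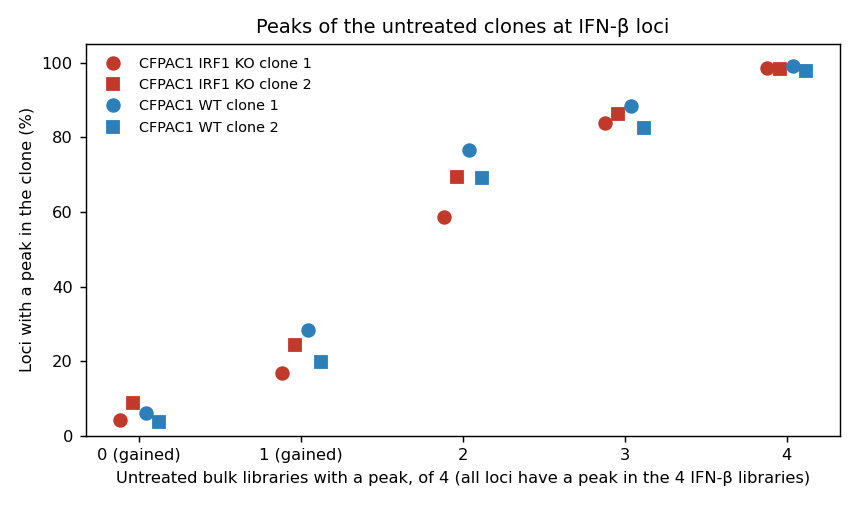
Share of loci with a peak in each clone (y axis, %), KO clones left of WT clones, by the number of untreated bulk libraries with a peak (x axis) among loci with a peak in all 4 IFN-beta libraries. The gained loci are the classes 0 and 1; with 0 untreated libraries the clones lie between 3.7 and 8.8%, and with 4 between 97.8 and 99.2%.

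No clone had a peak at 252 gained loci (72.6%), against 47.9% of all merged loci. This share went with the untreated peaks that the rule used. Among loci of all 4 IFN-beta libraries it was 86.1% with 0 untreated libraries, 50.4% with 1, 10.8% with 2, 3.07% with 3 and 0.0959% with 4. A peak in any clone was found at 30 of 216 loci (13.9%) without an untreated bulk peak, at 44 of 78 (56.4%) with one in a CFPAC1 untreated library and at 21 of 53 (39.6%) with one in a MiaPaCa2 untreated library. All 4 clones had a peak at 5 loci, nearest to NASP, OR1J1, WAPL, PYGO1 and NKIRAS2. NASP encodes a histone chaperone and WAPL a protein that releases cohesin. At NASP the peak of KO clone 1 had a fold of 21.2 but only 233 bp inside the locus, and the fold is that of the peak as a whole.

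Both KO clones and neither WT clone had a peak at 6 gained loci (1.73%), against 1.8% of all merged loci, and the reverse held at 5 (1.44%), against 1.57%. Both shares are near those of all loci. The 6 were at COL1A1, HEG1, ASB2, GZF1 and 2 loci without a gene position within 50 kb. HEG1, which encodes a membrane protein of endothelial junctions, had 1185 and 635 bp in the KO clones and 0 bp in both WT clones. The 5 were at STIL, GCNT1, SLC35D2, MGAT5B and in RAI1. STIL, which encodes a centriole duplication protein, had 0 bp in both KO clones and 281 and 394 bp in the WT clones.

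Some gained loci of interferon-stimulated genes had a peak in clones. The locus inside CMPK2, just downstream of its start, had 258 and 263 bp in the KO clones and 271 and 0 bp in the WT clones, and its fitted difference was 0.30 ± 0.27 (KO minus WT, log2 scale with 500 bp added, limma SE; adjusted p = 0.833). BATF2 had 0 and 813 bp in the KO clones and 360 and 284 bp in the WT clones, and MX1 had 0 and 380 bp in the KO clones and 0 bp in both WT clones. The KO clones overlapped the WT clones at CMPK2 and BATF2, and at MX1 a single KO clone had the peak.

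Covered length in the clones was tested over 66887 loci covered in at least 2 clones. With limma and Benjamini-Hochberg adjustment at 0.05, 0 loci differed (0% of those tested) and 7608 (11.4%) had an unadjusted p under 0.05. Of the 347 gained loci 49 could be tested, 0 differed, and 11 had an unadjusted p under 0.05, of which 6 were higher in KO clones. A locus covered in both clones of only 1 genotype entered the test through that genotype and had to differ. Of the 11 loci, 10 were of this kind, 5 covered in KO clones only and 5 in WT clones only, so this count is no support for a difference. The smallest p among them was at HEG1, with a log2 change of 1.47 ± 0.31 (limma SE) and an adjusted p of 0.402. The median log2 change was 0.04 over the 49 and 0.01 over all tested loci. With 2 clones a side a p above the threshold does not show that the genotypes are alike.

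**Figure D5:**
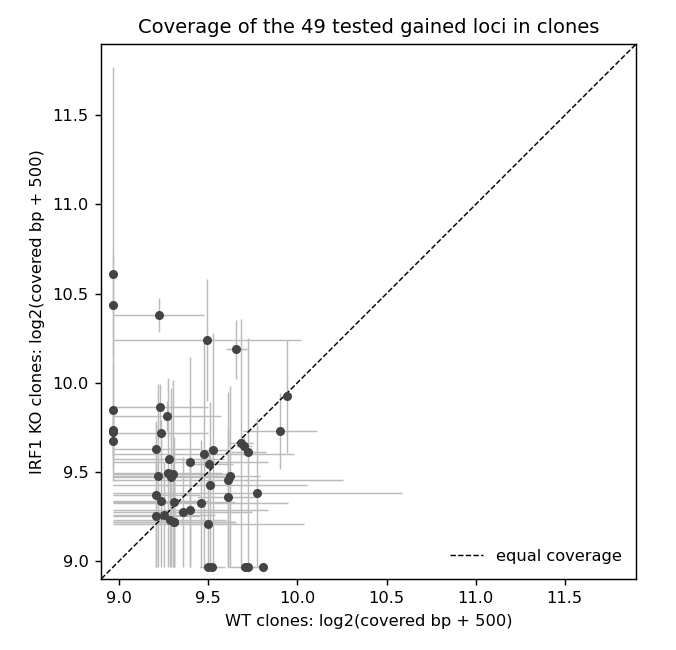
Covered length of the 49 tested gained loci, as log2 of covered bp plus 500, in KO clones (y axis) and WT clones (x axis). Points are means of 2 clones, bars run between the clones, and the dashed line marks equal coverage. Points lie on both sides of the line, with a median log2 change of 0.04.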

How the data were processed

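H3K27ac was measured in 12 libraries, grouped by their labels. Per the submitters' processing notes, Trimmomatic 0.38, Bowtie2 2.2.6, SAMtools and MACS2 2.1.0.20150731 were used with GRCh38. The authors deposited 1 peak list per library, so replicates were not pooled. Each deposited peak has a fold ratio, a -log10 q with the matching -log10 p, and a score that was not used. The control library and filters are not given in the sources used here. Read depth is unknown, no interval that needs it was computed, and presence of a peak can move with depth. More than 1 sequencing instrument is named without assignment to libraries, so no batch could be examined.

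Peaks were merged at a gap of 0 bp with Python 3.11.15, numpy 2.4.6 and pandas 2.3.3. A locus was assigned to the nearest start, or gene end where the strand is not known, of 19974 protein-coding genes of RefSeq (GRCh38.p14) within 50 kb. For the clones, covered bp per locus plus 500 was taken as log2, centred per library and fitted with limma 3.58.1 (R 4.3.3, trended prior, 2 residual degrees of freedom), over loci covered in at least 2 of 4 clones. Adjusted p-values are Benjamini-Hochberg values over all tested loci. The test was checked on simulated data with known changes. Those changes were large, the noise was low and no clone lacked coverage, so the check does not show power in these data. The share of gained loci with a peak was compared between genotypes with an exact permutation test (scipy 1.17.1). Replicate numbers did not pair the clones.

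Named are the 30 gained loci with the best mean rank of fold, those nearest to genes of 17 lists, the 5 widest and 5 narrowest, the 5 just inside and just outside the rule by rank, and any called in clones; loci of small counts were named after their values were seen. The gained loci, lists and rules were chosen with earlier results of these data known. Alternatives changed the q minimum, overlap, merging, peak number, untreated libraries allowed, assignment distance, pseudocount, filter, centring, model, block and libraries used.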

Additional observations from a re-analysis of the deposited data

How the results depend on the processing

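The count of 347 gained loci was 256 to 380 with peaks of -log10 q of at least 5, a 200-bp overlap, peaks within 500 bp merged, or equal numbers of peaks per library. It was 216 with 0 untreated libraries allowed, and 443 to 776 leaving out each bulk library in turn (588 without CFPAC1 IFN-beta 2, 618 without MiaPaCa2 IFN-beta 2, 776 without CFPAC1 untreated 1 and 775 without CFPAC1 untreated 2). Leaving out a bulk library loosens the rule, since fewer lists are asked for while at most 1 untreated peak is still allowed. Higher counts without a library therefore follow in part from the rule itself. Of the 347, 163 were overlapped by gained loci at the stricter q and 225 with equal peak numbers. The 32 loci near interferon-linked genes became 17 with 500-bp merging, 21 with 0 untreated libraries and 35 to 52 leaving out a bulk library, with 52 without CFPAC1 untreated 1 or 2. As a share of gained loci, 9.22% became 6.16% with 500-bp merging and 9.72% with 0 untreated libraries. Leaving out a bulk library it was 6.70 to 9.25%, lowest without CFPAC1 untreated 1. The difference in clone presence, KO minus WT, -0.288 points as reported, was -5.53 points with equal numbers of peaks per library (12.9% in KO clones and 18.4% in WT clones). It turned to 1.62 points with 0 untreated libraries and ran from -7.94 to 2.67 leaving out a library. Calls in the clone coverage test, 0 in the fit reported, were 2925 without a filter (3 of them gained loci), 1096 in 1 model over all 12 libraries and 0 to 1120 leaving out a clone, with 1120 without KO clone 1. The ISRE share was 10.7 and 11.2% for starts within 5 kb, all and coding. The causes were not tested.

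With the replicate number as a block the clone test made 0 calls, as it did with crossed numbers, which was added after seeing the data. The numbers do not pair the clones (r = -0.101 over 66887 loci). The precision is limited by 2 libraries per group, unknown depth and peak lists that show presence and extent but no signal between peaks.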
